A study of Hansenula anomala with 15 samples.

Results

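The Ehrlich pathway turns amino acids into aroma alcohols, and its opening steps in the yeast Wickerhamomyces anomalus were followed here through the transcripts of 5 of the 6571 genes in the deposited table. They were selected by KEGG ortholog. The orthologs were K00838 (aromatic transaminase of the ARO8 type, 1 gene), K05821 (aromatic transaminase of the ARO9 type, 1 gene), K00826 (branched-chain transaminase, 1 gene) and K12732 (phenylpyruvate decarboxylase of the ARO10 type, 2 genes). All 5 passed the filter on low counts, as did 6327 genes in all. The genes are ARO8 (WICANDRAFT_60097), ARO9 (WICANDRAFT_25789), BAT1 (WICANDRAFT_80660), ARO10 (WICANDRAFT_25906) and a second K12732 gene without a symbol, WICANDRAFT_84167. The symbols are those of the RefSeq assembly Wican1 and rest on homology.

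In the Ehrlich pathway a transaminase first moves the amino group of phenylalanine, tyrosine, tryptophan, leucine, isoleucine, valine or methionine to a keto acid acceptor. A thiamine-dependent decarboxylase then converts the resulting keto acid to an aldehyde. Alcohol dehydrogenases reduce the aldehyde to a fusel alcohol such as phenylethanol or isoamyl alcohol, or aldehyde dehydrogenases oxidise it to an acid, and acetyltransferases can turn the alcohol into an ester. In Saccharomyces cerevisiae, Aro8 is the transaminase used mostly in the synthesis of aromatic amino acids, while ARO9 and ARO10 are switched on by aromatic amino acids through the activator Aro80. Fusel alcohols and their esters are known contributors to the aroma of fermented fruit.

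Polyadenylated RNA came from whole fermentation broth, whose organism label is Hansenula anomala, an older name of the same yeast, in a series on volatile compounds of apricot fermentation. Broth was sampled at the start (0 h) and after 16, 32, 48 and 64 h, and each of the 5 times has 3 biological replicates. The labels name no treatment, genotype or strain, and the 0 h samples are the start of the same course. In such bulk samples a lower number of cells of a kind and less RNA per cell cannot be told apart.

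The libraries held 17.6 to 40.1 M counts, and the floor of detection, set at 3 counts in a library, lay at 0.0748 to 0.171 counts per 1 M counts of that library (CPM); this floor covers counting error only. Some libraries differed from their own group or resembled another time point more closely. Spearman's rho over 4453 genes, which are not independent replicates, was at most 0.742 between 16 h replicate 2 and its group. With other time points it was at most 0.694 for this library, with 32 h replicate 2. For 64 h replicate 3 it was at most 0.837 with its own group and 0.951 with 32 h replicate 2. These are called below the pair that stood apart; both were kept, and values without them are given where they moved a result. For 32 h replicate 3, rho was at most 0.886 with its own group and 0.965 with 48 h replicate 2. For 48 h replicate 1 it was at most 0.935 with its own group and 0.954 with 32 h replicate 2. For 48 h replicate 2 it was at most 0.955 with its own group. None of these belongs to the pair. The factors of TMM (edgeR's trimmed-mean scaling, which assumes equal levels of most genes in all libraries) ranged from 0.389 to 1.83. Levels below are TMM-scaled CPM as mean ± SD over n = 3 libraries. Fold changes are those of the edgeR quasi-likelihood fit of all 15 libraries. Adjusted p values are Benjamini-Hochberg values over the 6327 genes, and a gene is said to rise or fall where that value was under 0.05.

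The 5 transcripts did not move as a block. ARO9 rose early and stayed high, ARO8 and ARO10 rose between 16 h and 32 h, and BAT1 and WICANDRAFT_84167 were lower at 64 h than at 0 h. All 5 changed over the 5 time points in the edgeR F test (adjusted p from 0.000224 to 0.0106), as did 68.5% of all genes tested. When libraries were scaled by their plain size and not by TMM, 3 of the 5 passed, as did 76% of all genes tested.

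**Figure D1:**
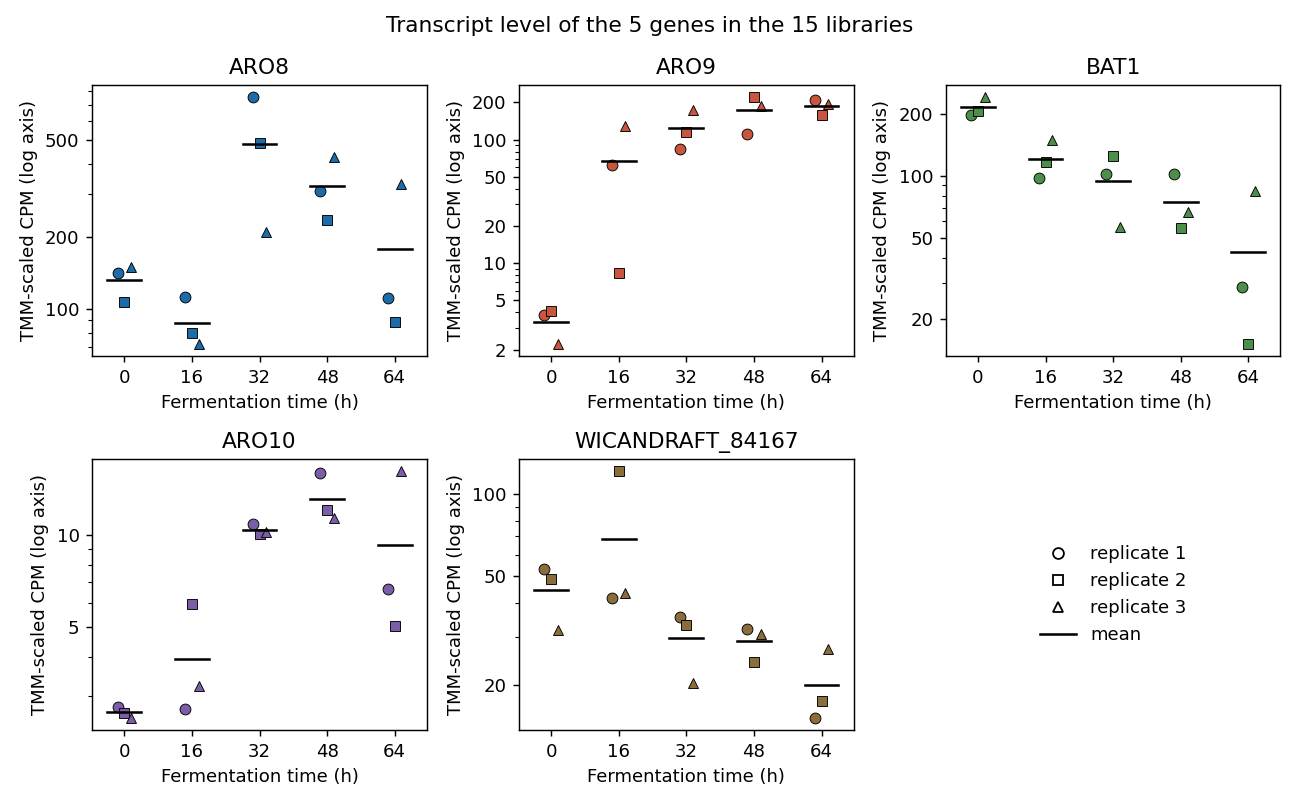
TMM-scaled CPM (log axis) of the 5 genes against fermentation time in hours; each symbol is 1 library, its shape gives the replicate, and the bar is the mean of 3 libraries. ARO9 lies between 2.22 and 4.09 CPM at 0 h and between 157 and 208 CPM at 64 h, while BAT1 lies between 199 and 242 CPM at 0 h and between 15.2 and 84.4 CPM at 64 h.

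ARO8 encodes the aromatic transaminase that in S. cerevisiae serves mainly synthesis. Its level was 141, 107 and 150 CPM in replicates 1, 2 and 3 at 0 h and 113, 79.6 and 71.8 CPM at 16 h. It was 754, 486 and 208 CPM at 32 h, 309, 233 and 426 CPM at 48 h, and 112, 88.4 and 332 CPM at 64 h. Every 32 h and 48 h library lay above every 0 h and 16 h library, the lowest 32 h value was that of replicate 3, and at 64 h only replicate 3, a library that stood apart, lay above the range of 0 h. The mean went from 88.1 ± 21.8 CPM at 16 h to 483 ± 273 CPM at 32 h. ARO8 thus rose 5.48-fold in this interval (log2 fold change 2.45, SE 0.54, edgeR adjusted p = 0.00395), and the call held in all 24 alternative analyses, with log2 fold changes from 2.01 to 3.59. At 64 h the mean was 177 ± 134 CPM against 133 ± 22.5 CPM at 0 h, a difference that did not pass (log2 fold change 0.42, SE 0.52, edgeR adjusted p = 0.515). Without both libraries that stood apart this last value was -0.41.

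ARO9 encodes the aromatic transaminase that in S. cerevisiae serves mainly the breakdown of aromatic amino acids. It stood at 3.82, 4.09 and 2.22 CPM at 0 h, from 137, 180 and 55 counts. At 16 h it was 62.4, 8.39 and 128.6 CPM, at 32 h 83.2, 116 and 174 CPM, at 48 h 110, 220 and 188 CPM, and at 64 h 208, 157 and 192 CPM. The 0 h libraries lay below all other libraries. The low value at 16 h belonged to replicate 2, a library that stood apart, and no 16 h library overlapped the range of 64 h. From 3.37 ± 1.01 CPM at 0 h the mean went to 66.4 ± 60.2 CPM at 16 h, a 19.6-fold rise (log2 fold change 4.29, SE 0.72, edgeR adjusted p = 0.000344). It reached 186 ± 26.5 CPM at 64 h, 54.8-fold above 0 h (log2 fold change 5.78, SE 0.77, edgeR adjusted p = 3.7e-05). Both calls held in all 24 alternatives. Their log2 fold changes ran from 3.38 to 4.82 for 16 h against 0 h, where the lowest value came without 16 h replicate 3, and from 5.55 to 5.97 for 64 h against 0 h. Between 16 h and 64 h the difference of 1.48 (SE 0.64) did not pass (edgeR adjusted p = 0.0797), and it passed in 4 of the 24 alternatives.

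The balance between these aromatic transaminases turned over the course. Levels of different genes were compared per kb of gene length, as a ratio within each library that does not depend on the scaling between libraries. ARO8 was 35.9, 25.5 and 65.8 times ARO9 in the 3 libraries of 0 h. The ratio was 1.76, 9.22 and 0.542 at 16 h, 8.80, 4.08 and 1.16 at 32 h, 2.72, 1.03 and 2.20 at 48 h, and 0.521, 0.548 and 1.68 at 64 h. Every later library lay below every 0 h library, and ARO9 exceeded ARO8 in 16 h replicate 3 and in 64 h replicates 1 and 2. These ratios were chosen after the levels had been seen and are a description without a test. With 3 libraries against 3, a two-sided exact permutation test of a single ratio could not give a p below 0.1.

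**Figure D2:**
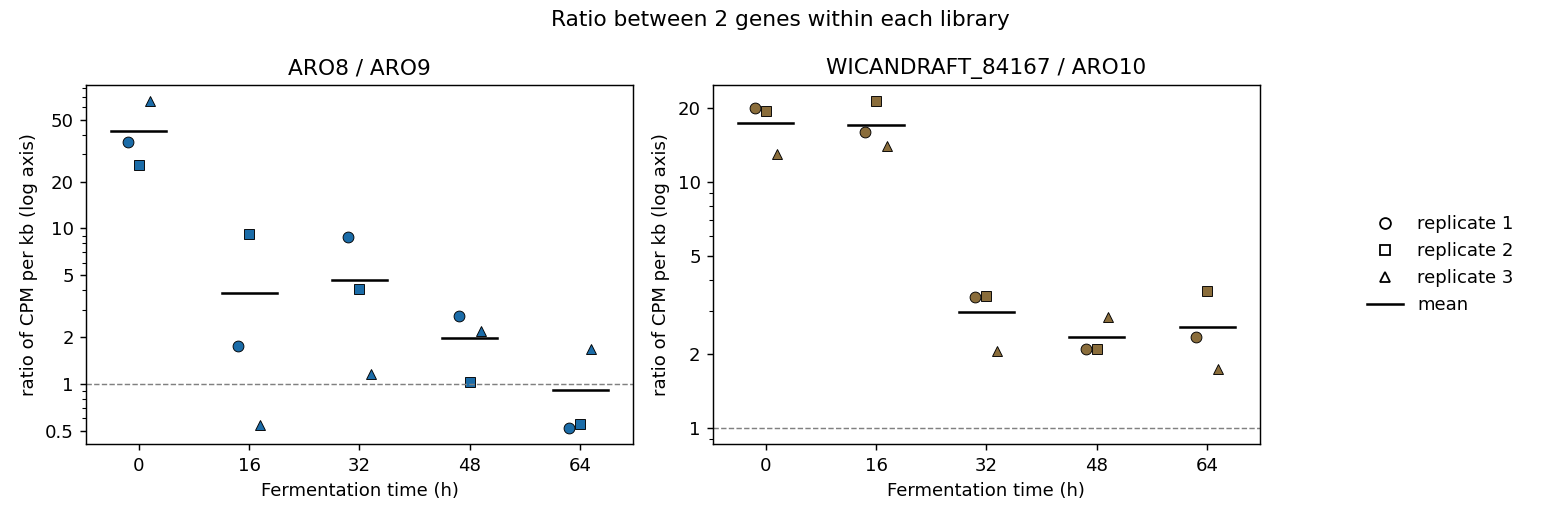
Ratio of levels per kb between ARO8 and ARO9 (left) and between WICANDRAFT_84167 and ARO10 (right) within each library, on log axes against time in hours; symbols are single libraries, bars are means of 3, and the dashed line marks equal levels. The left ratio falls from 25.5 to 65.8 at 0 h to 0.521 to 1.68 at 64 h, and the right ratio from 13.0 to 21.3 at 0 h and 16 h to 1.74 to 3.61 from 32 h on.

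BAT1 is the only gene of the table with the K00826 ortholog, the branched-chain transaminase that acts on leucine, isoleucine and valine. In S. cerevisiae the product of BAT1 is mitochondrial and a cytosolic partner, BAT2, exists. BAT1 stood at 199, 206 and 242 CPM at 0 h, 97.8, 117 and 149 CPM at 16 h and 102, 125 and 56.2 CPM at 32 h. It was 102, 56.0 and 66.6 CPM at 48 h and 28.6, 15.2 and 84.4 CPM at 64 h. The 0 h libraries lay above all others. The lowest 32 h value was that of replicate 3, as for ARO8. The highest 64 h value was that of replicate 3, and the other 64 h libraries lay below every earlier library. The step from 0 h to 16 h, from 216 ± 23 to 121.3 ± 26 CPM, did not pass although the groups did not overlap (log2 fold change -0.83, SE 0.50, edgeR adjusted p = 0.204). BAT1 fell between 0 h and 64 h, to 42.7 ± 36.7 CPM (log2 fold change -2.33, SE 0.53, edgeR adjusted p = 0.00203, 5.04-fold lower). That call held in all 24 alternatives, from -3.30, without 64 h replicate 3, to -1.87 with library size scaling. Of the summed level per kb of the 3 transaminases, BAT1 made up 63.3% to 69.9% at 0 h and 7.09% to 16.7% at 64 h, while ARO9 went from 0.5001% to 1.13% at 0 h to 31.1% to 60.02% at 64 h.

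BAT1 also fell between 16 h and 64 h (log2 fold change -1.51, SE 0.51, edgeR adjusted p = 0.0305). This call ended without 16 h replicate 3, 64 h replicate 1 or 64 h replicate 2, where the adjusted p values were 0.0906, 0.116 and 0.0894, and with only the 6 libraries of the comparison (adjusted p = 0.125). Without 64 h replicate 3 the log2 fold change was -2.47.

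ARO10 encodes a decarboxylase that in S. cerevisiae acts on phenylpyruvate and, more broadly, on keto acids of the Ehrlich pathway. Its level was 2.76, 2.63 and 2.54 CPM at 0 h, 2.71, 5.94 and 3.21 CPM at 16 h and 10.8, 10.04 and 10.2 CPM at 32 h. It was 15.9, 12.1 and 11.3 CPM at 48 h and 6.68, 5.04 and 16.1 CPM at 64 h. All 32 h and 48 h libraries lay above all 0 h and 16 h libraries. At 64 h only replicate 3 reached the levels of 48 h. ARO10 rose from 3.95 ± 1.74 CPM at 16 h to 10.4 ± 0.40 CPM at 32 h, 2.62-fold (log2 fold change 1.39, SE 0.41, edgeR adjusted p = 0.0191). This call ended without 16 h replicate 1 (adjusted p = 0.0734) and without 16 h replicate 3 (adjusted p = 0.0719). Against 0 h it was 3.51-fold higher at 64 h (log2 fold change 1.81, SE 0.41, edgeR adjusted p = 0.00221), a call that held in all 24 alternatives, with 1.15 without 64 h replicate 3. It was also higher at 64 h than at 16 h (log2 fold change 1.23, SE 0.41, edgeR adjusted p = 0.0275), but the groups overlapped, and without 64 h replicate 3 the log2 fold change was 0.57 and the adjusted p 0.21. That call ended as well without 16 h replicate 1 (adjusted p = 0.101) or replicate 3 (adjusted p = 0.0954), in limma-voom (adjusted p = 0.0551), with only the 6 libraries (adjusted p = 0.137) and with the replicate block (adjusted p = 0.0589).

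WICANDRAFT_84167 carries the same K12732 ortholog and a description of a thiamine pyrophosphate-requiring enzyme, the cofactor group to which these decarboxylases belong. It stood at 52.99, 49.1 and 31.8 CPM at 0 h, 41.5, 122 and 43.2 CPM at 16 h and 35.5, 33.2 and 20.3 CPM at 32 h. It was 32.0, 24.3 and 30.7 CPM at 48 h and 15.1, 17.5 and 27.1 CPM at 64 h. The highest value was that of 16 h replicate 2, a library that stood apart, and every 64 h library lay below every 0 h and 16 h library. It fell between 16 h and 64 h, from 68.8 ± 45.8 to 19.9 ± 6.33 CPM (log2 fold change -1.79, SE 0.42, edgeR adjusted p = 0.0045, 3.46-fold lower). Without 16 h replicate 2 this was -1.09 and still passed, while with only the 6 libraries it was -1.75 and did not (adjusted p = 0.051). It was 2.24-fold lower at 64 h than at 0 h (log2 fold change -1.17, SE 0.41, edgeR adjusted p = 0.0284). That call ended without 0 h replicate 1 or 2 and without 64 h replicate 1 or 2, with adjusted p values from 0.0742 to 0.102. The fall at 32 h against 16 h (-1.21 on the log2 scale, SE 0.41, edgeR adjusted p = 0.0375) was smaller without 16 h replicate 2, with a log2 fold change of -0.51 and an adjusted p of 0.221. The call was lost as well without any 1 of the 32 h or 48 h libraries, where log2 fold changes ran from -1.33 to -1.002 and adjusted p values from 0.0524 to 0.115. It was also lost in limma-voom (-1.07, adjusted p = 0.0593), with only the 6 libraries (-1.22, adjusted p = 0.118) and with the replicate block (-1.16, adjusted p = 0.0653).

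The decarboxylase genes therefore drew closer in level. Per kb within each library, WICANDRAFT_84167 was 19.9, 19.3 and 13.0 times ARO10 at 0 h and 15.9, 21.3 and 13.97 times at 16 h. The ratio was 3.41, 3.43 and 2.06 at 32 h, 2.09, 2.09 and 2.82 at 48 h, and 2.35, 3.61 and 1.74 at 64 h. No library of 0 h or 16 h overlapped the later libraries, and 16 h replicate 2 lay with its group here although both genes had their highest 16 h level in it. The share of WICANDRAFT_84167 in the summed level of the pair was 92.9% to 95.5% at 0 h and 16 h and 63.5% to 78.3% from 32 h on. WICANDRAFT_84167 stayed above ARO10 in all 15 libraries. As with the transaminases, these ratios are a description chosen after the levels had been seen. Reads that the 2 genes might share were not assessed, since no sequence was used here.

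Set among all tested genes by mean level per kb, the members occupied different parts of the range. At 0 h BAT1 stood at percentile 91.1 and ARO8 at 85.8, WICANDRAFT_84167 at 66.2, ARO9 at 10.6 and ARO10 at 5.83, and per kb no neighbours in this order overlapped. At 32 h ARO8 led with percentile 94.5, above ARO9 at 84.7 and BAT1 at 83.7, which overlapped each other but not ARO8. At 64 h ARO9 stood at 87.9 and ARO8 at 87.1, followed by BAT1 at 70.7, WICANDRAFT_84167 at 45.4 and ARO10 at 25.4. Per kb, the ranges of all neighbours in this order overlapped at 64 h. ARO10 thus remained a low transcript at its highest mean, 13.1 ± 2.47 CPM at 48 h.

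The members called in each comparison were counted beside the share of all genes called in the same direction. For 16 h against 0 h, 1 of 5 rose (ARO9) and 0 fell, where 22.6% of all genes tested rose and 17.8% fell; ARO8, ARO10 and WICANDRAFT_84167 had adjusted p values of 0.386, 0.279 and 0.242. For 32 h against 16 h, 2 of 5 rose (ARO8 and ARO10) against 14.1% of all genes, and 1 fell (WICANDRAFT_84167) against 17.7%. For 64 h against 16 h, 1 rose and 2 fell, against 18% and 20.8% of all genes. For 64 h against 0 h, 2 rose (ARO9 and ARO10) and 2 fell (BAT1 and WICANDRAFT_84167), against 26.6% and 25.8% of all genes. The median log2 fold change of the 5 was 0.90 for 32 h against 16 h, where that of all genes was -0.06, and 0.42 for 64 h against 0 h, where that of all genes was -0.02.

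From 32 h to 48 h no member passed, and neither did any other gene in edgeR (0% of 6327 called). In edgeR 347 genes had an unadjusted p under 0.05, while DESeq2 called 8 genes and limma-voom 0. ARO10 did not pass although its groups did not overlap, at 10.04 to 10.8 CPM and 11.3 to 15.9 CPM. Its log2 fold change was 0.34 (SE 0.40, edgeR adjusted p = 0.855). The members' log2 fold changes lay between -0.58 for ARO8 and 0.47 for ARO9, with adjusted p values from 0.813 to 0.991. From 48 h to 64 h edgeR called 0 members and 1 gene in all (0.0158%), with 1559 genes at an unadjusted p under 0.05. For the members, the calls in this interval depended on 64 h replicate 3. The number of all genes called was also higher without 16 h replicate 2 (861) and with DESeq2 (876). Without both libraries that stood apart, ARO8 fell (log2 fold change -1.69, adjusted p = 0.0179), BAT1 fell (-1.78, adjusted p = 0.00701) and ARO10 fell (-1.16, adjusted p = 0.00708), where 15.7% of all genes fell. The same 3 were called without 64 h replicate 3 alone. In that library ARO8, BAT1 and ARO10 stood at 332, 84.4 and 16.1 CPM, against at most 112, 28.6 and 6.68 CPM in the other 64 h libraries, while ARO9 at 192 CPM lay between them.

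**Figure D3:**
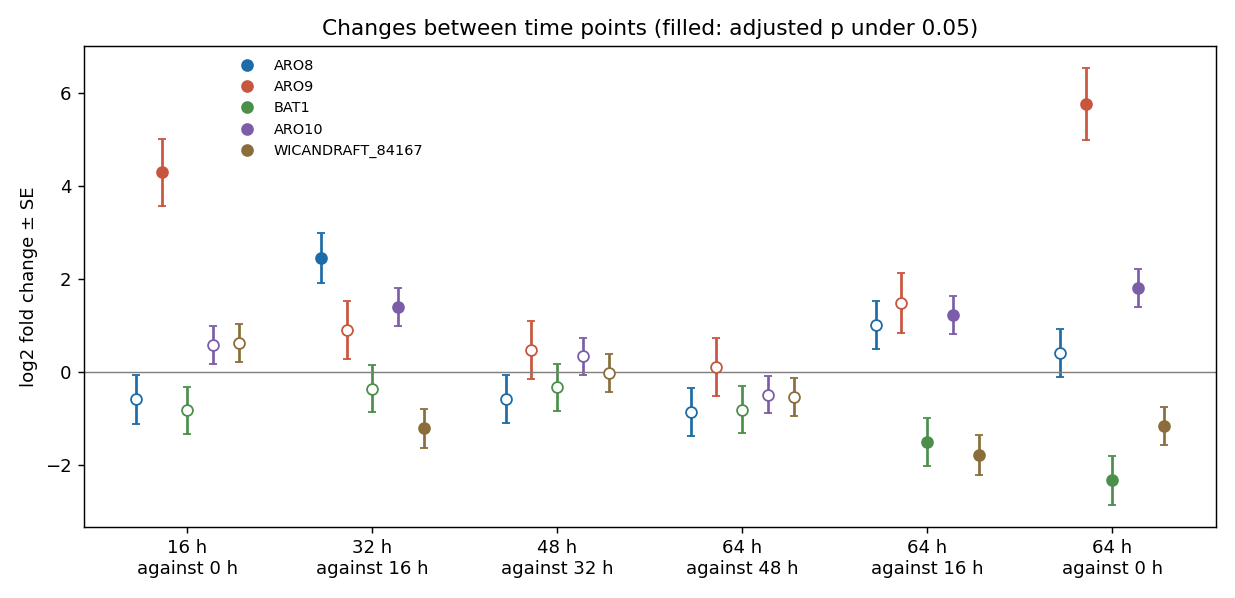
Log2 fold change ± SE of the 5 genes in the 6 comparisons between time points (edgeR, 15 libraries); filled points have an adjusted p under 0.05. ARO9 stands at 4.29 for 16 h against 0 h and 5.78 for 64 h against 0 h, and no point is filled for 48 h against 32 h or 64 h against 48 h.

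The scaling between libraries moved these values together. With plain library size in place of TMM, the median of all genes shifted by -0.68 (log2) for 16 h against 0 h, by 1.17 for 32 h against 16 h, by 0.92 for 64 h against 16 h and by 0.25 for 64 h against 0 h. From 16 h to 32 h, 3 of 5 members then rose, where 44.4% of all genes did: ARO8 (3.59), ARO10 (2.49) and now ARO9 (2.11, adjusted p = 0.0233). BAT1 changed sign to 0.74, without passing, and WICANDRAFT_84167 stood at -0.16 (adjusted p = 0.815). From 16 h to 64 h, ARO8 (2.17), ARO9 (2.41) and ARO10 (2.24) rose, where 36.4% of all genes did, and BAT1 and WICANDRAFT_84167 no longer passed. The order of the 5 was the same under both scalings in both comparisons. Against 0 h, the rise of ARO9 and ARO10 and the fall of BAT1 at 64 h passed under either scaling, whereas WICANDRAFT_84167 did not with library size (-0.91, adjusted p = 0.185).

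**Figure D4:**
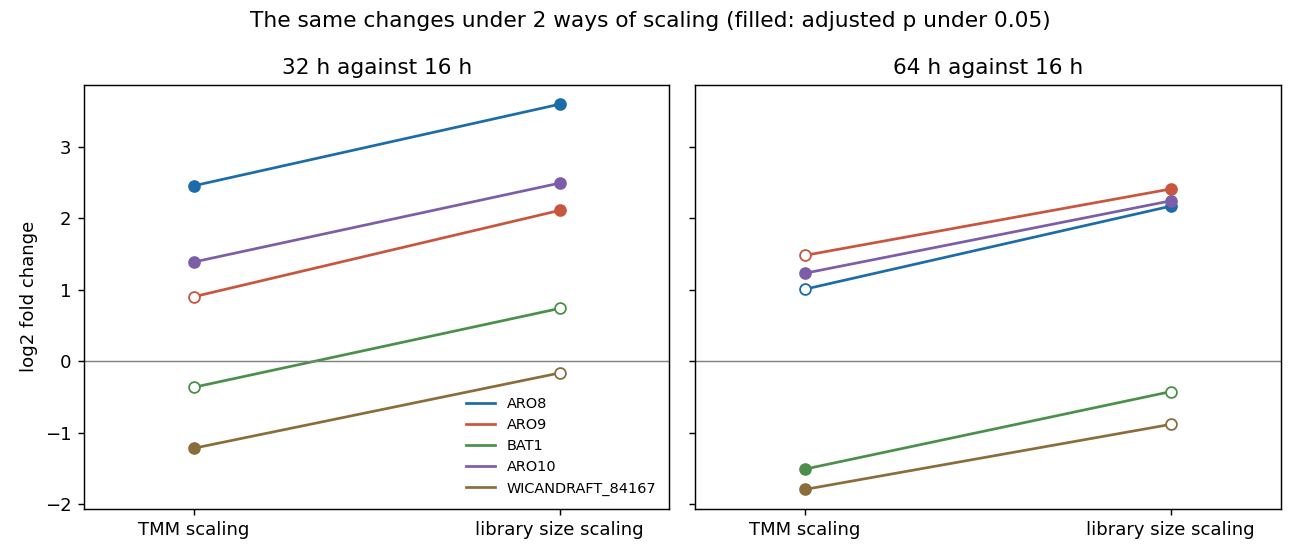
Log2 fold change of the 5 genes with TMM and with library size scaling, for 32 h against 16 h (left) and 64 h against 16 h (right); filled points have an adjusted p under 0.05. All 5 lines climb from TMM to library size, and BAT1 goes from -0.36 to 0.74 on the left.

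In a list of alcohol dehydrogenases and aldehyde dehydrogenases, which act on the aldehyde, with pyruvate decarboxylase, another keto acid decarboxylase, more genes rose than fell over the whole course. Of the 20 genes of this list, 12 rose and 3 fell from 0 h to 64 h (median log2 fold change 1.55), where 26.6% of all genes rose and 25.8% fell (median -0.02). The counts were 13 and 3 without both libraries that stood apart, where 27.2% of all genes rose and 29.6% fell. With library size scaling they were 12 and 3, where 27.2% of all genes rose and 17.2% fell. From 0 h to 16 h, 11 rose and 3 fell, where 22.6% of all genes rose and 17.8% fell; the counts were 8 and 3 with library size scaling, where the shares of all genes were 9.8% and 27.7%. ADH3 (WICANDRAFT_36130), an alcohol dehydrogenase, rose from 14.1 ± 4.8 to 33461 ± 17539 CPM at 16 h (log2 fold change 11.22, edgeR adjusted p = 2.19e-06). From 16 h to 32 h, 3 rose and 7 fell, where 14.1% of all genes rose and 17.7% fell. With library size scaling 7 rose and 4 fell, where 44.4% of all genes rose and 4.5% fell. Among the falls was WICANDRAFT_46076, the pyruvate decarboxylase gene, whose product makes acetaldehyde and, in S. cerevisiae, can also act on branched keto acids. It fell 104-fold, from 40737 ± 23831 to 390 ± 222 CPM (log2 fold change -6.71, edgeR adjusted p = 0.000194). ARO10 rose in this interval, to 10.4 ± 0.40 CPM, while WICANDRAFT_84167 fell, a call lost in 12 of 24 alternatives. Any link between these changes was not tested. WICANDRAFT_62195, which belongs to the class V alcohol dehydrogenases, fell in the same interval from 40648 ± 24130 to 136 ± 67.4 CPM. The list held 4 rises and 6 falls for 64 h against 16 h, where 18% of all genes rose and 20.8% fell. Library size scaling gave 8 rises and 4 falls, where 36.4% of all genes rose and 6.1% fell. An aldehyde dehydrogenase gene, WICANDRAFT_25445, was 57.2-fold higher at 64 h than at 16 h (edgeR adjusted p = 0.00024). WICANDRAFT_62195 was 83.9-fold lower in the same comparison (edgeR adjusted p = 0.000383).

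Most of the genes that make aromatic and branched-chain amino acids fell over the course. Of 14 genes of aromatic amino acid synthesis, 0 rose and 9 fell from 0 h to 64 h (median -1.46), where 26.6% of all genes rose and 25.8% fell. The counts were 0 and 9 without both libraries that stood apart, where 29.6% of all genes fell, and 1 and 7 with library size scaling, where 17.2% fell. ARO4, of the enzyme family that opens the shikimate route, fell from 222 ± 46 to 16 ± 7.8 CPM (log2 fold change -3.80, edgeR adjusted p = 1.32e-05), and its values and those of ARO9 moved in opposite directions between 0 h and 64 h. ARO1, which carries out several steps of that route, fell 9.45-fold from 16 h to 32 h (edgeR adjusted p = 7.36e-05), while ARO8 rose. In that interval 1 gene of the list rose and 2 fell, against 14.1% and 17.7% of all genes, and with library size scaling 6 rose and 1 fell, against 44.4% and 4.5% of all genes, shares near those of the list. Of 10 genes that make branched-chain amino acids, 1 rose and 7 fell from 0 h to 64 h (median -1.90), 1 and 8 without both libraries, and 1 and 6 with library size scaling, beside the same shares of all genes as above. ILV2, acetolactate synthase, went from 172 ± 31 to 7.84 ± 1.75 CPM (log2 fold change -4.45, edgeR adjusted p = 0.000203) and LEU1, isopropylmalate dehydratase, from 341 ± 55.9 to 11.9 ± 5.65 CPM (log2 fold change -4.84, edgeR adjusted p = 0.000191). BAT1, at -2.33, fell in the same comparison as these genes.

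Of 11 other aminotransferase genes, 2 rose and 4 fell from 0 h to 64 h, counts near the 26.6% and 25.8% of all genes. The counts were the same without both libraries, where the shares of all genes were 27.2% and 29.6%. With library size scaling they were 3 and 4, where the shares of all genes were 27.2% and 17.2%. HIS5, a transaminase of histidine synthesis, fell from 45.7 ± 3.89 to 1.26 ± 0.12 CPM, and an acetylornithine aminotransferase gene of arginine synthesis, WICANDRAFT_61589, fell 20.9-fold. From 16 h to 32 h, the interval of the ARO8 rise, 2 rose and 2 fell, near the 14.1% and 17.7% of all genes. With library size scaling 6 rose and 0 fell, where 44.4% of all genes rose and 4.5% fell. The risen genes were a pair: BNA3, a kynurenine aminotransferase, went from 190 ± 140 to 676 ± 156 CPM (log2 fold change 1.83, edgeR adjusted p = 0.0378) and AAT2, aspartate aminotransferase, from 361 ± 135 to 1177 ± 657 CPM (log2 fold change 1.71, edgeR adjusted p = 0.0183). Of 4 genes of glutamate and glutamine metabolism, which supply and reclaim the amino group, 2 rose and 1 fell from 0 h to 64 h, where 26.6% of all genes rose and 25.8% fell. The counts were the same without both libraries (27.2% and 29.6% of all genes) and with library size scaling (27.2% and 17.2%). GDH2, the glutamate dehydrogenase that releases ammonium, rose from 31.5 ± 3.8 to 116 ± 28.4 CPM (log2 fold change 1.88, edgeR adjusted p = 0.000627), and GLN1, glutamine synthetase, fell from 2748 ± 770 to 748 ± 350 CPM (log2 fold change -1.88, edgeR adjusted p = 0.0205).

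Among 9 regulators of nitrogen and amino acid use, 2 rose and 1 fell from 0 h to 16 h, shares at or below the 22.6% and 17.8% of all genes. The counts were the same without both libraries (22.5% and 20.4% of all genes) and with library size scaling (9.8% and 27.7%). SSY1, a sensor of external amino acids, rose at 16 h from 15.9 ± 0.12 to 68.4 ± 29 CPM (log2 fold change 2.11, edgeR adjusted p = 0.00012). GCN4, the activator of amino acid synthesis, was 2.70-fold lower at 64 h than at 0 h (edgeR adjusted p = 0.041). In that comparison 2 regulators rose and 1 fell, against 26.6% and 25.8% of all genes. With library size scaling 1 rose and 0 fell, against 27.2% and 17.2% of all genes. ARO80 (WICANDRAFT_14992), the activator of ARO9 and ARO10 in S. cerevisiae, was singled out after its values were seen, and it passed in none of the 6 comparisons. Its level was 17.1, 17.2 and 7.45 CPM at 0 h, 5.72, 84.5 and 11.4 CPM at 16 h, and between 5.69 and 15.3 CPM in the 9 later libraries. The highest ARO80 value was that of 16 h replicate 2, a library that stood apart. The values from 32 h on overlapped the range of 0 h. Whether Aro80 acts on ARO9 or ARO10 in this yeast was not tested.

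The transcripts whose course was most like that of each member were sought among 3582 named or described genes of at least 10 CPM on average, by Pearson's r of log2(CPM + 1) over the 15 libraries, which share time point, scaling and depth. For ARO9 they were a pair of permease genes of the major facilitator superfamily, WICANDRAFT_33270 (r = 0.984) and WICANDRAFT_56196 (r = 0.983), and an amino acid transporter gene, WICANDRAFT_84255 (r = 0.975). WICANDRAFT_33270 went from a mean of 11.5 CPM at 0 h to 412 CPM at 64 h and WICANDRAFT_84255 from 6.52 to 183 CPM. In 16 h replicate 2 these genes stood at 14.8, 21.9 and 10.97 CPM, low like ARO9 at 8.39 CPM. They were picked for their likeness to ARO9 over all 15 libraries, this one included. Their low values there are thus part of that likeness and no further trait.

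**Figure D5:**
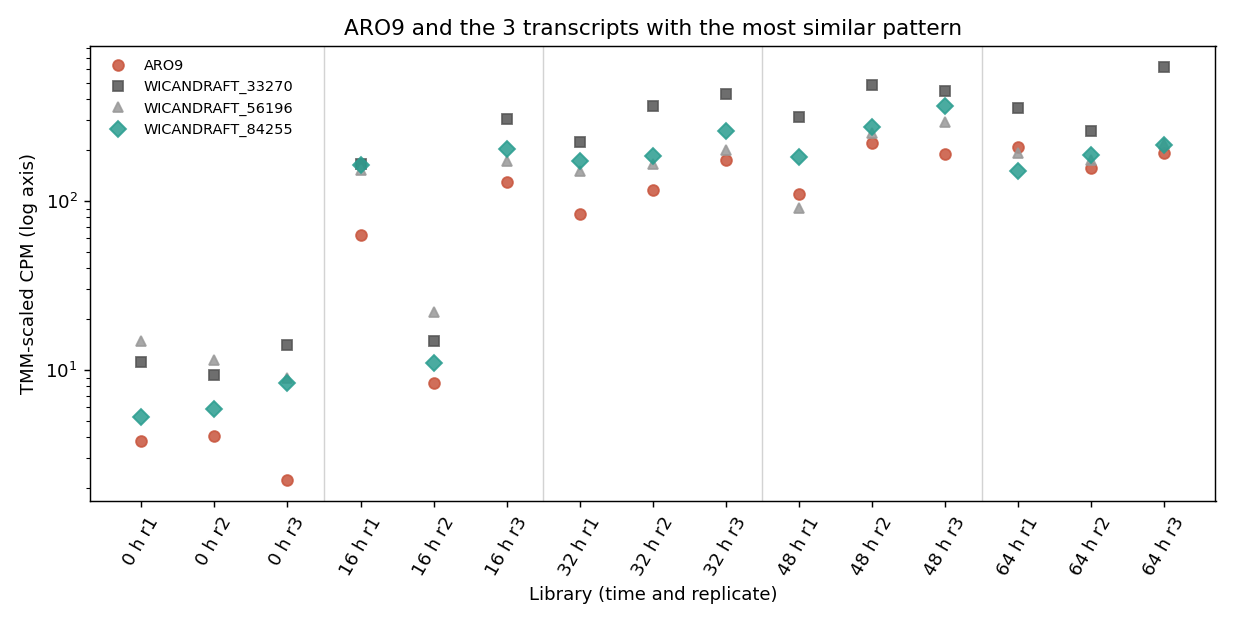
TMM-scaled CPM (log axis) of ARO9 and of the 3 genes with the most similar course in each of the 15 libraries, ordered by time and replicate, with vertical lines between time points. All 4 are low in the 0 h libraries and in 16 h replicate 2, where ARO9 stands at 8.39 CPM, and high in the remaining libraries. The 3 genes were picked for their likeness over these same libraries.

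For ARO8 the closest courses were those of MRI1 (r = 0.944), an enzyme of methionine salvage, SCM3 (r = 0.938), a chaperone of the centromeric histone, and TIM23 (r = 0.922), a channel of mitochondrial protein import. For BAT1 they were MRP1 (r = 0.980), PYP1 (r = 0.964) and NCS2 (r = 0.951), a gene of tRNA thiolation. For ARO10 they were DPC25 (r = 0.969), NFU1 (r = 0.961), a protein of iron-sulfur cluster assembly, and MPA43 (r = 0.953). For WICANDRAFT_84167 they were DLD1 (r = 0.956), a lactate dehydrogenase in S. cerevisiae, NOB1 (r = 0.949), a factor of ribosome maturation, and RRP43 (r = 0.949), an exosome subunit. No gene appeared for more than 1 member. Among the members themselves r was highest between ARO8 and ARO10 (0.73), ARO9 and ARO10 (0.69) and BAT1 and WICANDRAFT_84167 (0.68), and lowest between ARO9 and BAT1 (-0.70); it was 0.36 between ARO8 and ARO9. These values describe the 15 libraries and carry no test.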

How the data were processed

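Read counts per gene were analysed as the authors deposited them: whole numbers, not normalised. Per the submitters' processing notes, fastp, HISAT2 and HTSeq were used; versions, strand setting and genome build are not given in the sources used here, so no coordinates are printed. The labels' protocols give TRIzol extraction and polyA libraries made with the VAHTS Universal V6 kit. All 6571 identifiers matched locus tags of the RefSeq assembly Wican1, which gave symbols and gene lengths.

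In R 4.3.3, edgeR 4.0.16 kept 6327 genes by filterByExpr, scaled libraries by TMM and fitted a quasi-likelihood model with 1 mean per time point to all 15 libraries (10 residual degrees of freedom). The 5 time points were compared by an F test and by 6 contrasts; p values of each were adjusted by Benjamini-Hochberg over the 6327 genes, with calls made under 0.05. SE is the size of the log2 fold change over the square root of its F, an approximation. The p values set each difference against the spread between replicate libraries, estimated from all 15 libraries together. They cover only the variation among these samples, with 3 libraries at each time point.

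The members and lists were chosen with earlier results of these data known. Lists were matched by KEGG ortholog or, for regulators, by symbol. Those for the branched-chain keto acid dehydrogenase and for amino acid permeases found 0 genes. The list of alcohol and aldehyde dehydrogenases also asked for alcohol acetyltransferase, but none of its 20 genes carries that ortholog. Beside the members, up to 2 called genes of a list with the largest change in a contrast and at least 20 CPM in the higher group were named. The alternatives were DESeq2 1.42.0, limma-voom (limma 3.58.1), median-of-ratios factors, library size scaling, other filters, only the 6 libraries of a contrast, the replicate block, each library left out in turn, and both libraries that stood apart left out. Where 2 libraries were left in a group, the spread was pooled over all groups. Lists with library size scaling and without both libraries were added after the data were seen. No replicates agreed within sampling noise (chi-square per degree of freedom of at least 63).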

Additional observations from a re-analysis of the deposited data

How the results depend on the processing

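Over the 24 alternatives, the rises of ARO9 (16 h and 64 h against 0 h), ARO8 (32 h against 16 h) and ARO10 (64 h against 0 h) and the fall of BAT1 (64 h against 0 h) kept their direction and stayed past the threshold. With library size scaling, ARO10 and WICANDRAFT_84167 stood at -0.047 and -0.028 for 16 h against 0 h, and BAT1 at 0.74 for 32 h against 16 h. BAT1 and WICANDRAFT_84167 stood at 0.13 and 0.44 for 48 h against 32 h, and ARO9 at -0.58 for 64 h against 48 h. In all, 3094 genes were called for 32 h against 16 h and 196 for 64 h against 48 h. Over the 5 time points 3 members passed, as did 76% of all genes tested. A median shift goes with that scaling by construction. With only the 6 libraries of a comparison, 1227 genes were called for 32 h against 16 h, 1137 for 64 h against 16 h with 0 members, and 0 for 64 h against 48 h; fewer libraries entered the fit. DESeq2 called 8 genes for 48 h against 32 h. For 64 h against 48 h DESeq2 called 876, limma-voom 36, median-of-ratios factors 163 and the filter of 10 CPM 171; the cause was not tested. With that filter WICANDRAFT_84167 was at 0.050 for 48 h against 32 h. Without both libraries that stood apart, 1925 genes and 3 members were called for 64 h against 48 h, WICANDRAFT_84167 stood at -0.075 for 16 h against 0 h and ARO8 at -0.41 for 64 h against 0 h.

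With each library left out in turn, WICANDRAFT_84167 ran from -0.075 to 0.89 for 16 h against 0 h and from -0.24 to 0.086 for 48 h against 32 h, ARO9 from -0.077 to 0.36 for 64 h against 48 h, and ARO8 from -0.41 to 0.74 for 64 h against 0 h. Genes called ran from 1279 to 2582 for 32 h against 16 h and from 0 to 1158 for 64 h against 48 h, with 0 to 3 members. No effect shared by libraries of the same replicate number was seen: 7 of 30 same-number pairs correlated over 0.1 (median r -0.095, against 0.047 for other pairs). Values were centred on the mean of each time point, so a library that differs from its group weighs on that whole group. Whether the numbers follow the same culture can thus not be told from these values. With the replicate block, 27 of 30 values kept direction and side, the calls of WICANDRAFT_84167 for 32 h against 16 h (-1.16) and of ARO10 for 64 h against 16 h (1.19) were lost, WICANDRAFT_84167 stood at 0.0075 for 48 h against 32 h, and 0 genes were called for 64 h against 48 h. The lowest count of any member was 37, for ARO10 in 16 h replicate 1. By plain library size this was 1.06 CPM, above the floor of every library (at most 0.171 CPM).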
